A study of Mus musculus with 13 samples.

Results

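The bone morphogenetic protein (BMP) genes examined here were 4 ligands (Bmp2, Bmp4, Bmp6 and Bmp7), 2 receptors (Bmpr1a and Bmpr2), the secreted antagonist Grem1 and 3 transcripts that BMP signaling is known to induce (Id1, Id3 and Smad6). They were taken by name and found by symbol as 10 of the 53379 genes in the count table. All 10 were among the 19984 genes kept by the filter on low counts. Bulk RNA-seq had been done on CD45- stromal cells of the thymus from wild-type C57BL/6 mice at 2 months of age. The libraries came from steady state (n = 4) and from days 1, 4 and 7 (n = 3 each) of recovery from SL-TBI, a sublethal dose of total body irradiation. The steady-state mice are called untreated in the labels and PBS in the count columns, and no group carried a transgene or a deletion. The cells had been depleted of CD45+ cells with magnetic beads and then sorted, so each library is a mixture of epithelial cells, endothelial cells, fibroblasts and other stroma. The question asked of these genes was whether the targets followed the ligands through injury and recovery.

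BMP ligands are secreted dimers that bring together type I receptors, such as BMPR1A, and type II receptors, such as BMPR2, on the receiving cell. The receptors phosphorylate SMAD1, SMAD5 and SMAD9, which enter the nucleus with SMAD4 and switch on immediate targets such as the Id genes and the feedback inhibitor Smad6. In the thymus, BMP4 from mesenchyme and endothelium is known for its action on thymic epithelial cells and for its part in repair after injury, and gremlin 1 binds BMP2, BMP4 and BMP7 outside the cell and keeps them from the receptors.

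The windows from 250 bases before to 10 bases after the RefSeq start (GRCm38.p6) are shown for Bmp4 and Smad6, the ligand and the target that are contrasted in the text. RefSeq promoters were found for 7 of the 10 genes, and not used for Bmp2, Bmp7 and Id1. The Bmp4 window is chr14:46390660-46390919 on the minus strand, and the Smad6 window is chr9:64022050-64022309 on the minus strand. Each is written 5′ to 3′, with the SMAD palindrome GTCTAGAC in capitals.
Bmp4: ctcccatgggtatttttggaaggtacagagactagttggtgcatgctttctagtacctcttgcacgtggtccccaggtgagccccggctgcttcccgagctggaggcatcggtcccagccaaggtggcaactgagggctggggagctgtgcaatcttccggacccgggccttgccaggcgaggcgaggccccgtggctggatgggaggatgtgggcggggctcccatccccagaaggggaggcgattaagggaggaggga
Smad6: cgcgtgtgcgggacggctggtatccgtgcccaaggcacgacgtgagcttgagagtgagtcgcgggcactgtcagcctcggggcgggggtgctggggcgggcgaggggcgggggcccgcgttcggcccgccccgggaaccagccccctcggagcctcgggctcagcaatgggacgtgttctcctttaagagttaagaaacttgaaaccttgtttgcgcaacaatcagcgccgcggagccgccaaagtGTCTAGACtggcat
The palindrome lies across the start of Smad6 and was in 0.177% of the 32851 promoter windows of this length. It was added to the search after the sequence had been read. The GC-rich BMP element GGCGCC was in the windows of 3 of the 7 genes (Bmpr1a, Bmpr2 and Grem1), against 9.96% of all windows, and the SMAD box CAGAC, on either strand, was in those of Bmp6, Grem1 and Id3, against 44.0% of all windows. Neither of these was in the windows of Bmp4 or Smad6. A match describes the letters only, and binding was not measured.

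The libraries held between 15721866 and 52056896 counts, with a median of 44078906, and all 10 genes had counts in every library, from 11 for Grem1 to 25484 for Id3. Values are given as CPM, the counts of a gene relative to the TMM-normalized size of its library. The 4 steady-state libraries are always given in the order PBS day 1 replicate 2, PBS day 4 replicate 2, PBS day 7 replicate 1 and PBS day 7 replicate 2, which are the names of their count columns, and those after SL-TBI in the order of replicates 1, 2 and 3. The study's methods call the bulk samples biological replicates, but the labels do not tie them to separate animals, and p-values measure the spread between these libraries. Markers of the sorted stroma were present throughout. The summed CPM of 6 fibroblast markers was 3374 to 4868 at steady state, 2333 to 3129 at day 1, 2749 to 3992 at day 4 and 3734 to 4553 at day 7. That of 6 epithelial markers was 709 to 2623, 1313 to 2223, 2520 to 3397 and 556 to 1033, and that of 6 endothelial markers was 545 to 706, 679 to 1065, 625 to 966 and 603 to 813. Thymocyte transcripts (10 genes) were also present, at 228 to 759, 110 to 142, 20.8 to 31.7 and 202 to 4777, and erythroid transcripts (5 genes) at 1562 to 3582, 291 to 974, 4.39 to 7.16 and 283 to 777. No marker was at 0 in all libraries of a condition. The single epithelial markers differed. Krt5 was at 524, 160, 338 and 170 CPM at steady state and at 1092, 1294 and 919 CPM at day 4. Epcam was at 155, 33.4, 109 and 36.7 CPM at steady state and at 99.8, 24.4 and 25.5 CPM at day 4. In bulk RNA, fewer cells of a type and less RNA per cell cannot be told apart.

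None of the 10 genes passed an adjusted p of 0.05 in any of the 6 comparisons of the edgeR quasi-likelihood test. The share of all 19984 genes called was 2.35% for day 1 against steady state, 0.29% for day 4, 0.005% for day 7, 1.43% for day 4 against day 1, 8.13% for day 7 against day 1 and 3.9% for day 7 against day 4. The lowest adjusted p of the 60 tests was 0.105, for Bmp4 at day 7 against day 1. At an unadjusted p under 0.05 there were 8 of 60 tests, namely Bmp4 at day 1, Id3 and Bmp6 at day 4 and Grem1 at day 7, each against steady state, Id1, Id3 and Bmp4 at day 4 against day 1, and Bmp4 at day 7 against day 1. Of all genes, 17.2%, 13%, 13.5%, 13.7%, 23.9% and 18.7% had such a p in the 6 comparisons in the same order. With DESeq2, Id1 and Id3 were called at day 4 against day 1, with adjusted p of 0.0456 and 0.0399, and no other of the 10 genes was called in any of the 6 comparisons. Of all 19984 genes, DESeq2 called 960 at day 4 against day 1, where edgeR called 285. The plot of CPM by library shows how far the libraries of a condition lay apart.

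**Figure D1:**
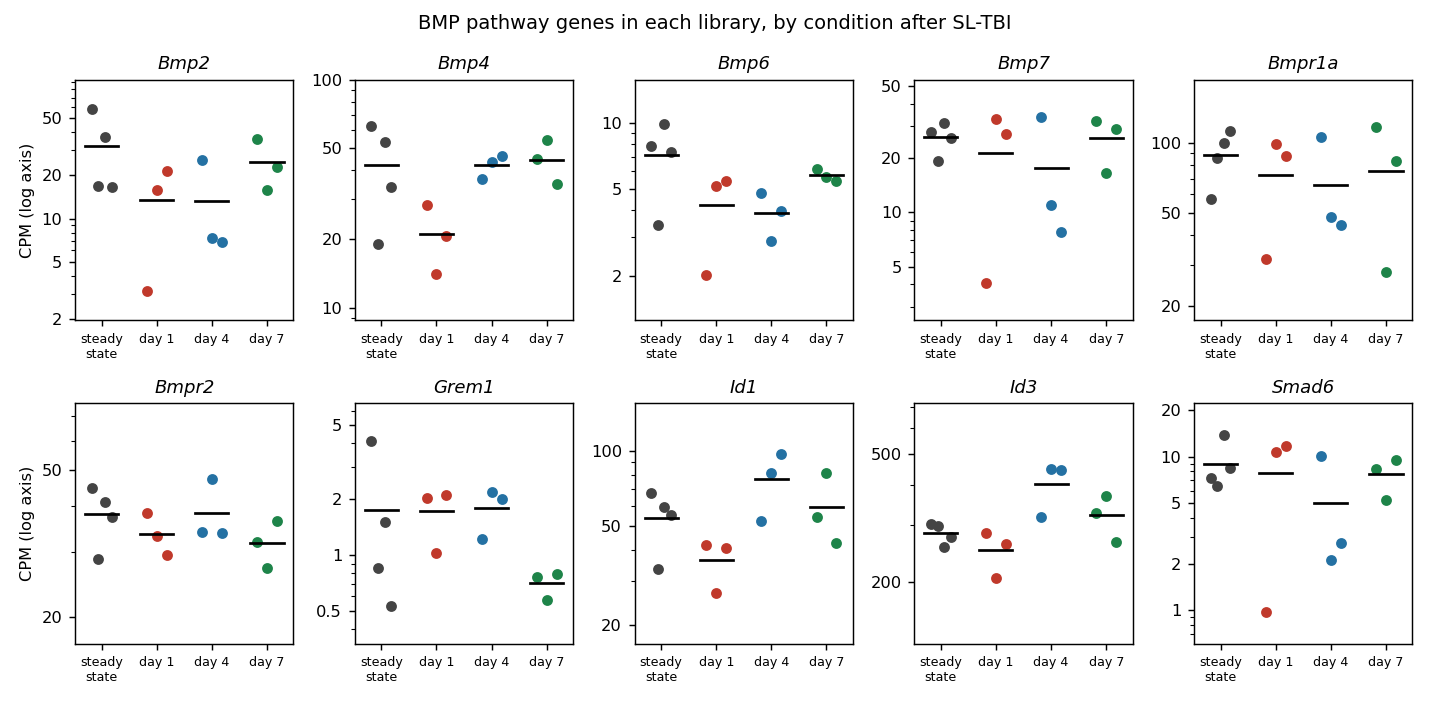
CPM of each of the 10 genes in each library (points; log axis, with its own range for each gene), by condition, with the mean of the condition as a black line. Every day 1 library was below every day 4 library for Bmp4 and Id1, while Bmp2, Bmp7, Bmpr1a and Smad6 each had 1 day 1 library and 2 day 4 libraries far below the others of the same condition.

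Of the ligands, Bmp4 came nearest to the threshold, with lower levels at day 1 than at days 4 and 7. It encodes the BMP most studied in thymic repair, and lies at chr14:46383520-46390669 (GRCm38), where 3.96% of its exonic bases overlap Gm15217. Its level was 62.5, 19.1, 53.5 and 33.8 CPM at steady state, 28.3, 14.1 and 20.6 CPM at day 1, 36.7, 43.7 and 46.2 CPM at day 4, and 44.7, 54.1 and 35.0 CPM at day 7. The steady-state libraries spanned the levels of days 4 and 7 and overlapped those of day 1, and every day 4 and day 7 library was above every day 1 library. On the log2 scale, Bmp4 differed by -1.01 ± 0.37 (SE) between day 1 and steady state (adjusted p = 0.188, edgeR), by 1.01 ± 0.39 between day 4 and day 1 (adjusted p = 0.264) and by 1.09 ± 0.39 between day 7 and day 1 (adjusted p = 0.105). Without 1 steady-state library, PBS day 4 replicate 2, which had the least Bmp4 of its group, the adjusted p was 0.0428 for day 1 against steady state (-1.25) and 0.0432 for day 7 against day 1 (1.09). Leaving out the lowest library widens the first difference by construction, and the second was 1.09 in both fits. Of all 19791 genes then kept, 797 and 2043 were called in these comparisons, where the fit to all libraries called 469 and 1625 of 19984. With the mean of the thymocyte markers as a covariate, Bmp4 differed by 0.62 between day 7 and day 1 (adjusted p = 0.638, edgeR). The differences of day 1 from steady state and of day 4 from day 1 were then -0.74 and 1.41 (adjusted p = 0.415 and 0.218, edgeR). These markers summed to 202, 4777 and 2061 CPM in the day 7 libraries. The day 1 libraries were also below every steady-state library in the summed fibroblast markers, but the single markers differed. Postn and Ptn were lower in every day 1 library, and the ranges of Dpp4, Smpd3 and Pi16 overlapped. Pdgfra also overlapped, at 1282, 837 and 771 CPM at day 1 and 677, 659, 884 and 756 CPM at steady state. Whether the cell mixture had a part in the level of Bmp4 was not tested.

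Bmp2, which encodes a close relative of BMP4, had its lowest level in a day 1 library and its highest at steady state. Its level was 58.2, 17.0, 37.2 and 16.8 CPM at steady state, 3.14, 15.8 and 21.6 CPM at day 1, 25.6, 7.32 and 6.83 CPM at day 4, and 35.8, 15.8 and 23.0 CPM at day 7. The ranges of all 4 conditions overlapped. The fitted differences were -1.26 ± 0.68 on the log2 scale at day 1 and -1.30 ± 0.68 at day 4, both against steady state (adjusted p = 0.367 and 0.426), 0.88 ± 0.70 between day 7 and day 1, and 0.92 ± 0.71 between day 7 and day 4 (adjusted p = 0.495 and 0.531). The last 2 values ran from 0.41 to 1.40 and from 0.56 to 1.73 with each library left out, and the lowest were those without day 1 replicate 1 and without day 7 replicate 1. With the tag at the end of the column names as a covariate, Bmp2 was called at day 1 against steady state (-1.72, adjusted p = 0.0186), at day 7 against day 1 (2.42, adjusted p = 0.0134) and at day 7 against day 4 (1.86, adjusted p = 0.0302). Of all 19984 genes, the fit with this covariate called 1066, 1416 and 854 in the same order, where the main fit called 469, 1625 and 779. The sources used here do not explain these tags, and they were spread unevenly over the days. No day 1 library had the k3 tag, and every day 7 library had the k3 or the kk tag. Days 1 and 7 shared only the kk tag, in day 1 replicate 1 and day 7 replicate 3. Day 4 replicates 2 and 3 had the k3 tag, so days 1 and 4 shared only libraries with neither tag. Tag and day were thus partly confounded, also for the differences of Bmp4, Id1 and Id3 between day 1 and days 4 and 7.

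Bmp7, whose product is a ligand of epithelia among other tissues, was at 28.0, 19.3, 31.3 and 25.9 CPM at steady state, 4.04, 32.9 and 27.1 CPM at day 1, 33.9, 10.9 and 7.76 CPM at day 4, and 32.2, 16.5 and 29.1 CPM at day 7. One day 1 library and 2 day 4 libraries were below all others, and the rest of both conditions were within or above the range of steady state. Its largest fitted difference, at day 4 against steady state, was -0.58 ± 0.61 on the log2 scale (adjusted p = 0.669). Without the 3 low libraries, which leaves day 4 with replicate 1 alone and so raises the value by construction, it was 0.39. Bmp6, known as an iron-regulating BMP of the endothelium, was the least abundant ligand, at 3.40 to 9.81 CPM at steady state, 2.01 to 5.42 CPM at day 1, 2.88 to 4.78 CPM at day 4 and 5.42 to 6.11 CPM at day 7. Its largest difference was -0.88 ± 0.41 at day 4 against steady state (adjusted p = 0.383), and day 7 was above day 4 in every library.

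Per kilobase of exon, the scale on which genes can be compared, the mean ligand levels at steady state were 18.8 CPM per kb for Bmp4, 9.08 for Bmp2, 6.50 for Bmp7 and 1.82 for Bmp6 (SD 8.70, 5.56, 1.26 and 0.688, n = 4). Bmp4 also had the highest mean at days 1, 4 and 7, with 9.34, 18.8 and 19.9 CPM per kb. At steady state the range of Bmp2 overlapped those of Bmp4 and Bmp7, all Bmp4 values were above all Bmp7 values, and Bmp6 was below the other three in all 4 libraries. At day 4, every Bmp4 library (16.3 to 20.6 CPM per kb) was above every Bmp2 (1.92 to 7.21) and Bmp7 (1.93 to 8.45) library.

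Of the receptors, Bmpr1a, the type I receptor, varied within every condition and Bmpr2, the type II receptor, varied least of the ligands and receptors. Bmpr1a was at 57.3, 85.9, 99.6 and 112 CPM at steady state, 31.7, 99.1 and 87.8 CPM at day 1, 105, 48.1 and 44.3 CPM at day 4, and 116, 27.8 and 83.1 CPM at day 7. The lowest libraries of days 1 and 4 were those that were also lowest in Bmp7, and the ranges of all conditions overlapped. Its largest fitted difference was -0.43 ± 0.50 on the log2 scale, at day 4 against steady state (adjusted p = 0.702), and it was 0.25 with day 4 replicate 1 as the only day 4 library, without the 3 libraries lowest in Bmp7. Bmpr2 stayed between 27.1 and 47.4 CPM over all 13 libraries, and its largest difference was -0.27 ± 0.23, at day 7 against day 4 (adjusted p = 0.581). Per kilobase, Bmpr1a averaged 14.0 CPM per kb at steady state and Bmpr2 2.11.

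Grem1, the antagonist, was scarce. It had 4.10, 0.850, 1.51 and 0.533 CPM at steady state, 2.04, 1.02 and 2.12 CPM at day 1, 1.23, 2.18 and 2.00 CPM at day 4, and 0.759, 0.574 and 0.786 CPM at day 7. Every day 7 library was below every day 1 and day 4 library, and within the wide range of steady state. The difference between day 7 and day 4 was -1.36 ± 0.63 on the log2 scale (adjusted p = 0.270).

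Id1 encodes a dominant-negative helix-loop-helix protein and is an early transcriptional target of BMP signaling. It lies at chr2:152736251-152737410 and was at 67.7, 33.5, 59.7 and 55.2 CPM at steady state, 41.8, 27.0 and 40.7 CPM at day 1, 52.3, 81.5 and 96.8 CPM at day 4, and 54.2, 81.5 and 42.7 CPM at day 7. All day 4 and day 7 libraries were above all day 1 libraries, as for Bmp4, and steady state overlapped with each of the other conditions. Its log2 differences were -0.57 ± 0.31 for day 1 against steady state (adjusted p = 0.376), 1.08 ± 0.33 for day 4 against day 1 (adjusted p = 0.156) and 0.70 ± 0.33 for day 7 against day 1 (adjusted p = 0.214). Id3, which encodes a related protein, was at 302, 297, 257 and 275 CPM at steady state, 284, 205 and 262 CPM at day 1, 318, 448 and 444 CPM at day 4, and 328, 370 and 266 CPM at day 7. Every day 4 library was above every steady-state and every day 1 library. The log2 differences of Id3 were -0.17 ± 0.20 for day 1 against steady state (adjusted p = 0.711), 0.69 ± 0.22 for day 4 against day 1 (adjusted p = 0.176) and 0.36 ± 0.22 for day 7 against day 1 (adjusted p = 0.351). At day 4 against steady state, Id1 and Id3 differed by 0.51 ± 0.30 and 0.51 ± 0.20 (adjusted p = 0.472 and 0.329, edgeR). Bmp4 differed by 0.0014 ± 0.36 in that comparison (adjusted p = 0.999, edgeR), so the higher Id means had no counterpart in Bmp4 there.

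Smad6, which encodes an inhibitory SMAD induced as negative feedback, did not share the course of the Id genes. It was at 7.24, 6.45, 13.9 and 8.43 CPM at steady state, 0.962, 10.7 and 11.7 CPM at day 1, 10.1, 2.11 and 2.74 CPM at day 4, and 8.27, 5.24 and 9.49 CPM at day 7. The ranges of all 4 conditions overlapped, and day 1 replicate 1 and day 4 replicates 2 and 3 lay far below the other 10 libraries. Its largest difference, at day 4 against steady state, was -0.88 ± 0.71 on the log2 scale (adjusted p = 0.577). Without these 3 libraries, which were chosen for their low Smad6 and leave day 4 with replicate 1 alone, it was 0.18, a rise that the choice fixes. In the 5 libraries whose column name had neither the k3 nor the kk tag, Smad6 was at 7.24 to 13.9 CPM, and in the other 8, which include the 3 low ones, at 0.962 to 9.49 CPM.

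The ranges of the libraries of 2 conditions did not overlap for few of the 10 genes, and at about the share of all genes. Against steady state this was so for 0 genes at day 1 (15.8% of all genes), 1 gene at day 4 (Id3, higher; 14.7%) and 0 genes at day 7 (7.49%). At day 4 against day 1 it was so for 3 genes, all higher (Bmp4, Id1 and Id3; 26.3%), at day 7 against day 1 for 2 higher (Bmp4 and Id1) and 1 lower (Grem1; 27.5%), and at day 7 against day 4 for 1 higher (Bmp6) and 1 lower (Grem1; 26.2%). The median log2 difference of the 10 genes was -0.29 at day 1, -0.21 at day 4 and -0.23 at day 7 against steady state, beside -0.10, -0.13 and 0.00 over all genes tested. It was 0.01 at day 4 and 0.32 at day 7 against day 1, and 0.14 at day 7 against day 4, beside -0.10, 0.05 and 0.11. Comparisons with the same condition share its libraries.

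**Figure D2:**
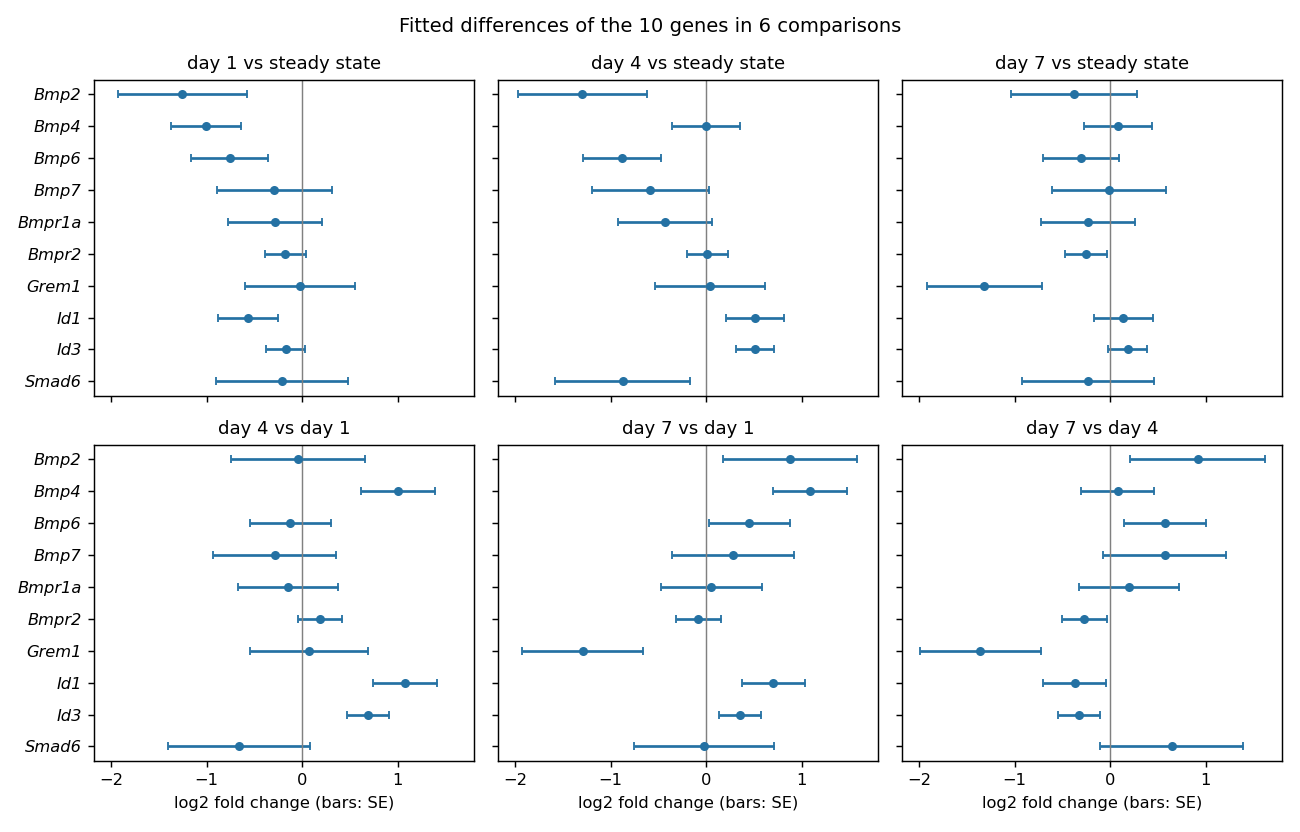
Fitted log2 fold change (points) with its standard error (bars) for the 10 genes in each of the 6 comparisons, from the edgeR fit to all 13 libraries. All 10 values were below 0 for day 1 against steady state, and the values of Bmp4, Id1 and Id3 were 1.01, 1.08 and 0.69 for day 4 against day 1. None passed an adjusted p of 0.05.

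A wider list of the pathway held 53 genes, of which 48 passed the filter on low counts (not Bmp8b, Bmp10, Gdf7, Hjv or Nog). It comprised 10 of 13 ligands, 10 of 11 receptors and co-receptors, 4 of 4 signal-transducing SMADs, 5 of 5 intracellular inhibitors, 11 of 12 antagonists and 12 of 12 targets, some of them in 2 lists. The called genes were a target and a co-receptor, with 1 gene higher and 0 lower at day 4 against day 1 (Id2), and 0 higher and 1 lower at day 7 against day 1 (Eng). No gene of the list was called by edgeR at days 1, 4 or 7 against steady state or at day 7 against day 4, where 6, 5, 1 and 5 of the 48 genes had an unadjusted p under 0.05 (17.2%, 13%, 13.5% and 18.7% of all genes) and DESeq2 called 1, 0, 0 and 2. In the comparisons of days 4 and 7 with day 1, 9 and 5 genes had such a p (13.7% and 23.9% of all genes) and DESeq2 called 4 and 2. Of all 19984 genes, DESeq2 called 960 and 2940 in these 2 comparisons. It called 1399, 645 and 1081 at days 1, 4 and 7 against steady state, and 1919 at day 7 against day 4.

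Id2, the third Id gene in this comparison, was at 112, 75.6, 68.8 and 86.2 CPM at steady state, 59.8, 32.1 and 56.6 CPM at day 1, 96.9, 132 and 117 CPM at day 4, and 99.8, 97.8 and 76.6 CPM at day 7. It rose by 1.22 ± 0.27 on the log2 scale between day 1 and day 4 (adjusted p = 0.0438), with all day 4 libraries above all day 1 libraries. Column tag and day were partly confounded in this comparison, since day 4 replicates 2 and 3 had the k3 tag and no day 1 library did. Of the 12 targets, 10 had a positive difference in this comparison, with a median of 0.54, beside -0.10 over all genes tested. Eng, an endothelial co-receptor of BMP9 and BMP10, was at 206, 172, 179 and 142 CPM at steady state, 282, 312 and 281 CPM at day 1, 210, 237 and 238 CPM at day 4, and 168, 206 and 163 CPM at day 7, and its log2 difference at day 7 against day 1 was -0.70 ± 0.20 (adjusted p = 0.0450). The endothelial markers summed to 679 to 1065 CPM at day 1 and 603 to 813 CPM at day 7, but the single markers differed. Selp was higher and Cldn5 lower in every day 1 library than in every day 7 library. Pecam1, Cdh5, Plvap and Vwf overlapped, with Plvap at 21.5, 508 and 344 CPM at day 1. The part of the cell mixture in the level of Eng was not tested. The call for Eng was lost when any 1 of the 6 libraries of days 1 and 7 was left out (adjusted p = 0.0682 to 0.124), and the call for Id2 when any 1 of the 6 libraries of days 1 and 4 was left out (0.0585 to 0.213).

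Whether the targets followed the ligands was then asked from library to library, with Pearson's r of log2(CPM + 0.5) over the 13 libraries for the 12 pairs of a ligand and a target. Bmp4 and Id1 moved together (r = 0.87, permutation p = 6e-05, adjusted over the 12 pairs 0.00036; Spearman's rho = 0.85, permutation p = 0.00048). Bmp4 and Id3 were less closely related (r = 0.58, permutation p = 0.0363, adjusted 0.0870; rho = 0.52, p = 0.0700), and no relation of Bmp4 and Smad6 was detectable with this number of libraries (r = -0.13, permutation p = 0.679, adjusted 0.774; rho = -0.19, p = 0.542). The difference between the r of these pairs was not tested. In the plot of the pairs, Id1 rose with Bmp4, with scatter about the trend. Day 7 replicate 1 and day 4 replicate 3 had 44.7 and 46.2 CPM of Bmp4 but 54.2 and 96.8 CPM of Id1. Mean Bmp4 was 42.2 CPM at both steady state and day 4, where mean Id1 was 54.0 and 76.9 CPM.

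**Figure D3:**
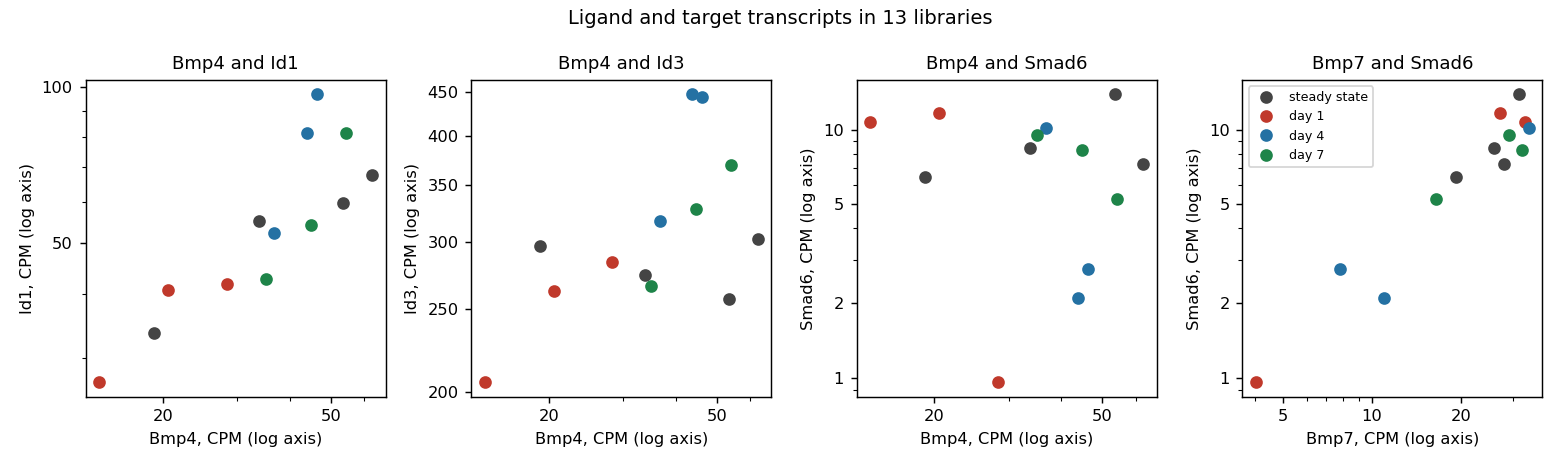
CPM of a target (y axis, log) against CPM of a ligand (x axis, log) for 4 pairs, with each of the 13 libraries as a point coloured by condition. Id1 rose with Bmp4 (r = 0.87), and no relation of Smad6 to Bmp4 was detectable (r = -0.13). The difference between these r was not tested. The 3 libraries with Smad6 at 0.962, 2.11 and 2.74 CPM stood apart and were also the lowest in Bmp7.

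The relation of Bmp4 and Id1 passed the threshold within conditions and without each library. With values centred within each condition, r was 0.84 (permutation p = 0.00019 over the 5184 permutations within conditions, adjusted 0.0023), and centred within the families of column tags it was 0.88 (permutation p = 0.00072, adjusted 0.0086). These families hold 3 to 5 libraries, too few for an r of their own. Without the 2 libraries farthest from the median of Bmp4, r was 0.73 (permutation p = 0.0103, adjusted 0.0309, n = 11), and with each library left out in turn it was 0.80 to 0.90. For Bmp4 and Id3, r was 0.40 without the 2 farthest libraries (permutation p = 0.222) and 0.40 centred within condition (permutation p = 0.107), whereas it passed the threshold for CPM without TMM (r = 0.74, adjusted 0.0095) and without PBS day 7 replicate 1 (r = 0.70, adjusted 0.0269). Among the 11458 other genes with a mean of at least 5 CPM, 26 (0.227%), Id1 included, were as closely related to Bmp4 as Id1 was, and 625 (5.45%) were as closely related to Bmp4 as Id3 was.

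Smad6 followed the other ligands over the 13 libraries, with r of 0.96 for Bmp7, 0.84 for Bmp2 and 0.81 for Bmp6 (permutation p = 4e-05, 0.00036 and 0.00063, adjusted 0.00036, 0.0014 and 0.0019; rho = 0.81, 0.65 and 0.58, permutation p = 0.0016, 0.0198 and 0.0439, adjusted 0.0095, 0.0792 and 0.132), and with Bmp4 and Id1 these made 4 of 12 pairs past an adjusted p of 0.05. These values come from 2 clusters of libraries, since Smad6 was at 0.962 to 2.74 CPM in 3 and at 5.24 to 13.9 CPM in 10. Within the 10, r was 0.78 for Bmp7 (permutation p = 0.0067, adjusted 0.040), 0.20 for Bmp2 (permutation p = 0.575) and 0.36 for Bmp6 (permutation p = 0.313). Leaving out libraries for their low Smad6 narrows its range, which lowers r by construction. Without the 2 libraries farthest from the median of the ligand, r was 0.92 for Bmp7, 0.87 for Bmp2 and 0.51 for Bmp6 (permutation, adjusted p = 0.0061, 0.0068 and 0.218). Centred within condition, it was 0.96, 0.84 and 0.79 (adjusted 0.033, 0.063 and 0.017, by permutation), and centred within tag families 0.94, 0.78 and 0.75 (adjusted 0.030, 0.080 and 0.095, by permutation). Bmp4 and Id1 had an r of 0.94 within the 10 (permutation p = 5e-05, adjusted 0.00060). The other 8 of the 12 pairs had r between -0.50 and 0.58 over the 13 libraries, none past an adjusted p of 0.05.

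**Figure D4:**
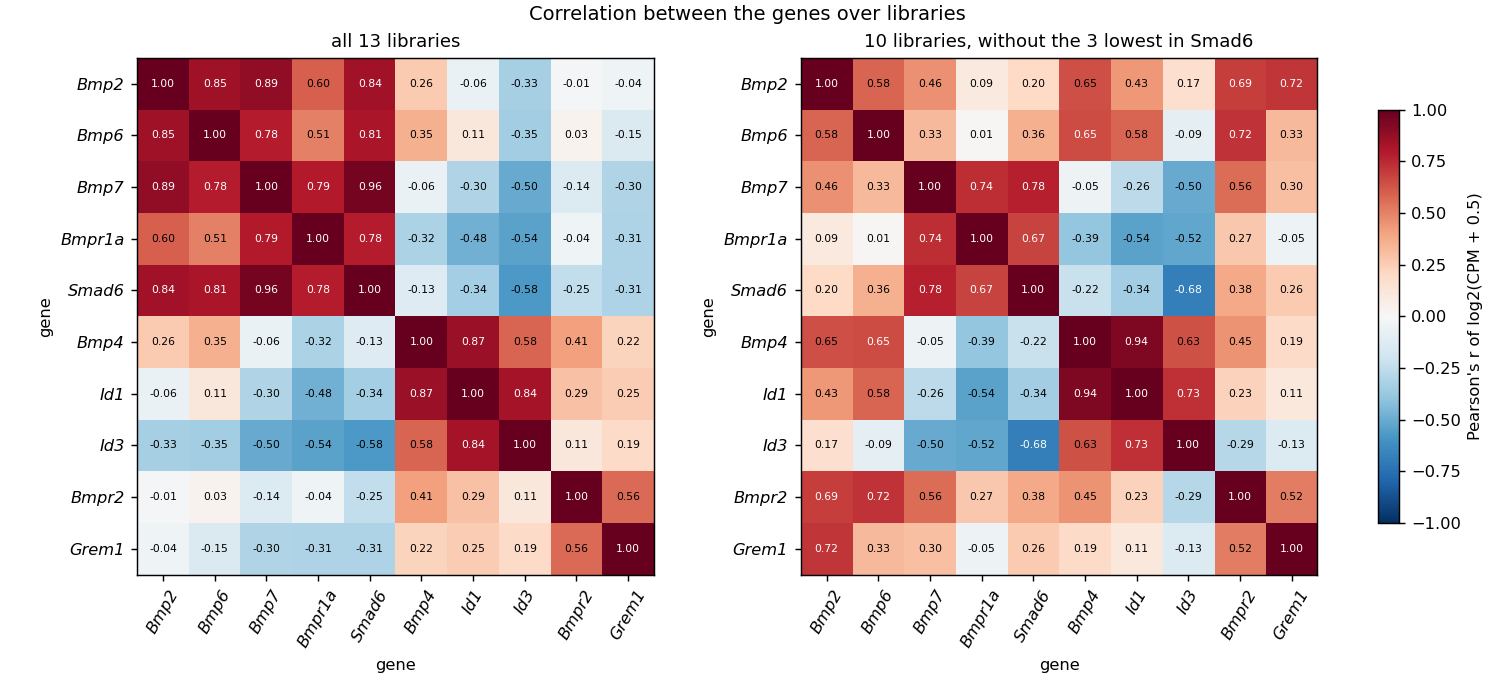
Pearson's r of log2(CPM + 0.5) between each pair of the 10 genes, over all 13 libraries (left) and over the 10 libraries without day 1 replicate 1 and day 4 replicates 2 and 3 (right). Over 13 libraries Bmp2, Bmp6, Bmp7, Bmpr1a and Smad6 made 1 block (r from 0.51 to 0.96) and Bmp4, Id1 and Id3 another (0.58 to 0.87). Over 10 libraries the r of Bmp2 and Smad6 was 0.20, while that of Bmp4 and Id1 was 0.94.

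The block of Smad6 and Bmp7 was shared with many other genes, and that of Bmp4 and Id1 with few. Of the 11458 other genes compared, 929 (8.11%) had an r of 0.9 or more with Smad6 and 917 (8.0%) with Bmp7, whereas 7 (0.0611%) had one with Bmp4 and 5 (0.0436%) with Id1. These are descriptions over libraries that share depth, tags and cell mixture. The genes most like Bmp4 over the 13 libraries were Crispld2 (r = 0.95), Il34 (0.94), C1qtnf9 (0.94), Nrp1 (0.92) and Tmem182 (0.92). Those most like Id1 were Ntf3 (r = 0.92), Aspa (0.92), Car7 (0.91), Acbd4 (0.91) and C1qtnf9 (0.90), so C1qtnf9 was in both lists of 5 genes.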

How the data were processed

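The RNA-seq reads had been trimmed with Trimmomatic 0.38, aligned to GRCm38.p5 with STAR 2.7.0e and counted per gene with featureCounts 1.6.3, per the submitters' processing notes. The authors deposited 1 table of raw counts, unnormalized whole numbers, beside the exonic length used here for CPM per kb. Groups were taken from the labels. The columns of the 4 steady-state libraries do not show the labelled replicate, so these libraries are named by column. Symbols came from GENCODE annotation of GRCm38 (53274 of 53379 genes), and gene coordinates from the table.

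All 13 libraries entered 1 edgeR 4.0.16 fit (R 4.3.3) with condition as its term. Low counts were filtered with filterByExpr, libraries were normalized by TMM, and the test was the quasi-likelihood F-test. Benjamini-Hochberg adjustment was over all 19984 genes kept, with a threshold of 0.05. The SE is the log2 fold change divided by the square root of F. edgeR steps and correlations were checked on simulated data. The simulated counts varied less than these libraries, whose common dispersion was 0.177, so the check does not show the power to call a change here. Correlations were tested two-sided by 100000 permutations of the libraries, or by all permutations within conditions (5184) or tag families (86400). These and the plots were made in Python 3.11.15.

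Outside the 10 genes, the genes named were those of the pathway lists past the threshold, and for Bmp4 and Id1 the 5 genes with the highest r among those with a mean of at least 5 CPM. The members and lists were chosen with earlier results of these data known, and 1 listed gene is not reported here. Alternatives were DESeq2 1.42.0, RLE normalization, no filter, at least 10 counts in every library, only the conditions compared, each library left out, covariates for the column tag or the mean of the thymocyte markers, and the replicate number as a block. Those of the correlations were rank correlation (Spearman), log2(CPM + 0.1), no TMM, centring within condition, and leaving out libraries. Leaving out the 3 libraries low in Smad6 or the 2 day 7 libraries high in thymocyte transcripts, and centring within tag families, were added after seeing the data.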

Additional observations from a re-analysis of the deposited data

How the results depend on the processing

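Of the 21 log2 differences examined under 461 settings in all, 421 kept their direction and their side of the threshold, 29 lost the call (those of Eng and Id2), 7 gained one, and 4 changed sign, each without the 3 libraries low in Smad6, which leaves 1 day 4 library: Bmp2 at day 7 against day 4 (-0.044) and, at day 4 against steady state, Bmp7 (0.39), Bmpr1a (0.25) and Smad6 (0.18). The number of the 10 genes called was 0 in every comparison and 2 with DESeq2 at day 4 against day 1. With the column tag as a covariate it was 1 at day 1 against steady state, 1 at day 7 against day 1 and 1 at day 7 against day 4 (Bmp2 each time). That setting called 1066, 1416 and 854 of all 19984 genes in the same order. With each library left out, the number of the 10 genes called ran from 0 to 1 at day 1 against steady state and from 0 to 1 at day 7 against day 1 (Bmp4, without PBS day 4 replicate 2), and it was 0 in the other comparisons. Of all 19791 genes kept without that library, the fit called 797 at day 1 against steady state and 2043 at day 7 against day 1. The causes were not tested. With the replicate block, possible between days 1, 4 and 7 only, 0 of the 10 genes were called. The mean correlation of same-numbered libraries was -0.47 for days 4 and 1, -0.14 for days 7 and 1 and 0.08 for days 7 and 4. That of differently numbered libraries was 0.20, 0.08 and -0.04. With so few libraries and uneven tags, these values cannot show whether the numbers pair the libraries. Over all genes, the block left 56, 640 and 0 calls in place of 285, 1625 and 779 (day 4 and day 7 against day 1, day 7 against day 4). Steady state was left out of the block because its columns do not carry the replicate numbers of the labels. DESeq2 called 1399, 645 and 1081 genes at days 1, 4 and 7 against steady state and 960, 2940 and 1919 in the other comparisons, and edgeR 469, 58 and 1, and 285, 1625 and 779. Over all settings these counts ran from 182 to 1399, 10 to 645 and 0 to 1081, and from 7 to 960, 0 to 2940 and 0 to 1919.

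Of the 12 pairs of a ligand and a target, 4 passed the threshold, 2 with Spearman's rho, 2 without the 3 libraries low in Smad6 and 2 centred within tag families. The count was 4 to 6 with each library left out, and within 1.5 times of 4 in all other settings run. Some of the pairs gained were inverse, with the target lower where the ligand was higher. Without day 1 replicate 1, Bmp7 passed with Id1 (r = -0.64, adjusted permutation p = 0.048) and with Id3 (r = -0.82, adjusted 0.0040). Without the 2 libraries farthest from the median of Bmp7, Bmp7 passed with Id3 (r = -0.75, adjusted permutation p = 0.031). Bmp4 with Id1 and Bmp7 with Smad6 passed in all 21 alternatives, with r from 0.73 to 0.94 and from 0.78 to 0.97. The correlation of Bmp4 with Smad6 was 0.029 without the 2 libraries farthest from the median of Bmp4, and ran from -0.31 to 0.0057 with each library left out. Depth limits Grem1 most, with as few as 11 counts in a library.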
